A study of Mus musculus with 4 samples.

Results

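The 10 adipocyte genes Adipoq, Cfd, Plin1, Cidec, Adrb3, Lep, Retn, Fabp4, Ucp1 and Pck1 were followed through lung RNA-Seq libraries of mice treated with amiodarone, dabigatran or both. They were taken by gene symbol, from a list drawn up with earlier results of these data known, and all 10 were found among the 17780 genes of the deposited table. All mice were male, of the strain C57BL/6 in the labels and C57BL/6J in the methods, bought at 6 to 7 weeks of age, and the methods name no genetic change. They were treated orally, 5 times per week, with vehicle (carboxymethylcellulose), amiodarone at 300 mg per kg, the thrombin inhibitor prodrug dabigatran etexilate at 60 mg per kg, or amiodarone + dabigatran. The labels give 28 days of treatment and the methods give collection of the left lung on day 26. Each of the 4 groups is 1 library, so there is no replicate, no SD and no test across animals, and whether a library is 1 animal or a pool is not given in the sources used here. Levels are given as FPKM, the fragments counted per unit of transcript length and of library depth, which allows genes of different length to be compared. A ratio between libraries is followed by its 95% counting interval (exact Clopper-Pearson, from the reads of both libraries). This interval covers counting error only, and a ratio whose interval excludes 1 is called beyond counting error for these libraries, not for the treatments.

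Fat cells store triglyceride in a lipid droplet, release fatty acids when catecholamines act on them, and secrete hormones. White adipocytes have a single large droplet and are the main source of leptin, and in mice of resistin. Brown adipocytes burn fatty acids through the uncoupling protein Ucp1. The lung itself holds few fat cells, while white and brown fat lie close to it in the mediastinum, and macrophages, capillary endothelium and type 2 epithelium use some of the same lipid genes. In bulk tissue, fewer fat cells and less RNA per fat cell cannot be told apart.

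The main pattern was a lower level of the adipocyte genes where amiodarone was given. Between amiodarone and vehicle, the hormone gene Adipoq, the complement protease gene Cfd, the droplet genes Plin1 and Cidec, and the resistin gene Retn were each at least 2-fold lower. Adipoq, Cfd and Plin1 were also at least 2-fold lower with amiodarone + dabigatran than with dabigatran, a pair of libraries that shares none with the first. Against vehicle, the combination was less than 2-fold lower for them, at ratios of 0.632 (Adipoq), 0.661 (Cfd) and 0.513 (Plin1). Fabp4, in contrast, lay between 24.7 and 28.8 FPKM in the 4 libraries, and its ratio was within counting error in all 5 comparisons. Ucp1 was at 0 or 1 read throughout.

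The bases before the starts of Adipoq, Cfd and Plin1 are shown because these 3 genes were low in both pairs of libraries. They come from RefSeq for GRCm38.p6 and are written in the direction of the gene. Capitals mark the CCAAT box (CCAAT) and the C/EBP-like motif TTGCNNAA, in which N is any base, on either strand. For Adipoq and Cfd the 250 bases before the start are given, and for Plin1 the 122 bases before its outermost annotated start.
Adipoq, chr16:23146286-23146535, + strand: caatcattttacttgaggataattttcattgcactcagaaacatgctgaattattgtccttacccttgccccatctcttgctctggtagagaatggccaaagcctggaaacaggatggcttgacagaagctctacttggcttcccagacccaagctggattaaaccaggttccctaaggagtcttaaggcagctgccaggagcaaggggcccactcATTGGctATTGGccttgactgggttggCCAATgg
Cfd, chr10:79890603-79890852, + strand: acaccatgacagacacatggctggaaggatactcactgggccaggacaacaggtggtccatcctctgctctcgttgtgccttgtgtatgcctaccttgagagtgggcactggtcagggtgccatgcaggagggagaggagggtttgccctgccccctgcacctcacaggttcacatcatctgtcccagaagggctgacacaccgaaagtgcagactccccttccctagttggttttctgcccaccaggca
Plin1, chr7:79732905-79733026, - strand: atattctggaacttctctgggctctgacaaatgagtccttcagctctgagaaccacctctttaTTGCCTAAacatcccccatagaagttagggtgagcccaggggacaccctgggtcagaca

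RefSeq windows of 300 bases, from 250 before to 50 after a start, were on hand for 8 of the 10 genes, with 2 windows for Cidec and none for Adrb3 and Fabp4. The CCAAT box occurred in the window of 1 gene, Adipoq, with 3 matches, and in 37.4% of all 32851 windows. TTGCNNAA occurred in the windows of 3 genes, Lep, Cidec and Plin1, and in 10.8% of all windows. Its palindromic form TTGCGCAA, a subset of the former and the classical binding sequence of C/EBP factors, which drive adipocyte differentiation, was in the Lep window and in 0.183% of all windows. The half-site AGGTCA of nuclear receptors was in the Ucp1 window and in 16.3% of all windows. The direct repeat of this half-site with 1 base between the copies, the form bound by the adipocyte regulator PPARG, was in none of the 9 windows and in 0.0396% of all windows. Both strands were searched. These matches describe letters in short windows, and the 3 printed genes shared none of the motifs.

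Adipoq encodes adiponectin, a hormone made almost entirely by fat cells, on chromosome 16 from 23146536 to 23157968. The vehicle library held 4.13 FPKM (85 reads), against 1.95 FPKM (43 reads) after amiodarone, 6.85 FPKM (143 reads) after dabigatran and 2.61 FPKM (58 reads) after amiodarone + dabigatran. The libraries with amiodarone were thus the lower pair, and the dabigatran library was the highest. The ratio of amiodarone to vehicle was 0.472 (0.319 to 0.689), and that of the combination to dabigatran was 0.381 (0.276 to 0.520).
Cfd encodes adipsin, the complement factor D that activates the alternative pathway, on chromosome 10 from 79890853 to 79892655. It led the set in 3 libraries, with 62.8 FPKM (955 reads) for vehicle, 106 FPKM (1639 reads) for dabigatran and 41.5 FPKM (683 reads) for the combination, and was second to Fabp4 with amiodarone, at 21.3 FPKM (347 reads). With the most reads of the set, its intervals were the narrowest: 0.339 (0.299 to 0.384) for amiodarone against vehicle and 0.390 (0.356 to 0.427) for the combination against dabigatran.

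**Figure D1:**
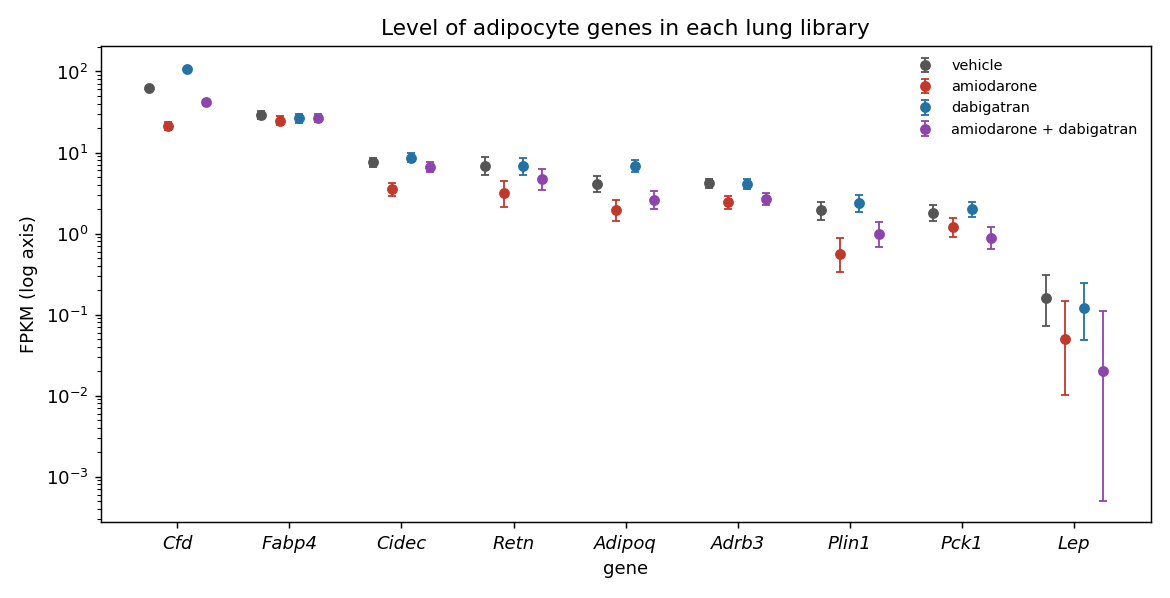
Level of each gene in FPKM (log axis) in the vehicle, amiodarone, dabigatran and amiodarone + dabigatran libraries, with exact 95% Poisson intervals of the reads as bars; 1 library per group. Cfd spans from 21.3 to 106 FPKM and Fabp4 from 24.7 to 28.8 FPKM; Ucp1, at 0 reads in 3 libraries, is not drawn.

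Plin1 encodes perilipin 1, the coat protein that guards the droplet of mature adipocytes (chromosome 7 from 79721164 to 79732904). It was at 1.93 FPKM (63 reads) in the vehicle library, 0.56 FPKM (19 reads) after amiodarone, 2.36 FPKM (77 reads) after dabigatran and 0.99 FPKM (34 reads) after the combination. Its ratio of amiodarone to vehicle, 0.290 (0.164 to 0.491), was the lowest among the 8 genes that reached 1 FPKM, and the ratio of the combination to dabigatran was 0.419 (0.272 to 0.636).
Cidec encodes a protein that fuses small droplets into large ones (chromosome 6 from 113424634 to 113435760). Its levels were 7.54 FPKM (218 reads) in the vehicle library, 3.5 FPKM (108 reads) after amiodarone, 8.65 FPKM (254 reads) after dabigatran and 6.58 FPKM (205 reads) after the combination. Here the amiodarone library stood below the other 3, with a ratio to vehicle of 0.464 (0.365 to 0.587), while the combination was nearer to dabigatran, at 0.761 (0.630 to 0.918).

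The white fat genes Retn and Lep differed in how well they could be measured. Retn encodes resistin, on chromosome 8 from 3655770 to 3659818. Both libraries without amiodarone had 63 reads, at 6.86 FPKM (vehicle) and 6.78 FPKM (dabigatran), against 3.15 FPKM (31 reads) after amiodarone and 4.73 FPKM (47 reads) after amiodarone + dabigatran. Its ratio was 0.459 (0.289 to 0.717) for amiodarone against vehicle and 0.698 (0.468 to 1.03), within counting error, for the combination against dabigatran.
Lep, on chromosome 6 from 29060221 to 29073876, encodes leptin, the hormone of fat stores. It had 9 reads in the vehicle library, 3 after amiodarone, 7 after dabigatran and 1 after the combination, which is at most 0.16 FPKM. The ratio of amiodarone to vehicle, 0.312 (0.0544 to 1.25), cannot be told from 1 at this depth, and that of the combination to vehicle was 0.125 (0.00285 to 0.902).
Ucp1, the brown fat gene, on chromosome 8 from 83290348 to 83298456, had 0 reads with vehicle, amiodarone and dabigatran and 1 read with the combination. A count of 0 allows up to 3 reads, or 0.0972 FPKM in the vehicle library, and no ratio is given.

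Adrb3 encodes the adrenergic receptor through which noradrenaline starts lipolysis in fat cells. Its level was 4.16 FPKM (205 reads) in the vehicle library, 2.43 FPKM (129 reads) after amiodarone, 4.12 FPKM (205 reads) after dabigatran and 2.65 FPKM (142 reads) after the combination. Both libraries with amiodarone lay below both without it, at ratios of 0.584 (0.465 to 0.732) and 0.643 (0.516 to 0.801). The gene, on chromosome 8 from 27225776 to 27230845, overlaps the antisense gene Gm45470 in GENCODE, and whether reads were counted by strand is not given in the sources used here.
Pck1, on chromosome 2 from 173153073 to 173159274, encodes the cytosolic PEP carboxykinase that supplies glycerol phosphate for triglyceride in fat and glucose in liver and kidney. It was at 1.80 FPKM (81 reads), 1.19 FPKM (57 reads), 2.0 FPKM (91 reads) and 0.89 FPKM (43 reads) with vehicle, amiodarone, dabigatran and the combination. Among the 8 genes with at least 10 reads in every library it alone was lowest in the combination library, with a ratio to vehicle of 0.494 (0.333 to 0.724), while amiodarone stood to vehicle at 0.661 (0.463 to 0.939).
Fabp4 encodes the fatty acid carrier of adipocytes, which macrophages and capillary endothelium also make (chromosome 3 from 10204342 to 10208616). It had 28.8 FPKM (293 reads) in the vehicle library, 24.7 FPKM (269 reads) after amiodarone, 26.3 FPKM (272 reads) after dabigatran and 26.5 FPKM (292 reads) after the combination. The 4 values lay close together, and the ratio of amiodarone to vehicle was 0.857 (0.724 to 1.01).

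By level in the vehicle library the order was Cfd, Fabp4, Cidec, Retn, Adrb3, Adipoq, Plin1, Pck1, Lep and Ucp1. Cidec and Retn, Adrb3 and Adipoq, and Plin1 and Pck1 were neighbours whose counting intervals overlapped. All 10 genes together took 0.0113% of the reads of the vehicle library, 0.00537% after amiodarone, 0.0155% after dabigatran and 0.00797% after the combination. In that order the sums were 1972, 1006, 2751 and 1506 reads, of which Cfd held 955, 347, 1639 and 683. Without Cfd and Fabp4 the sums were 724, 390, 840 and 531 reads.

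The genes were counted against the background of all genes that had at least 1 FPKM in either library of a comparison. For amiodarone against vehicle 8 of the 10 genes were in this set, without Lep and Ucp1. Of these 8, 5 were at least 2-fold lower (Adipoq, Cfd, Plin1, Cidec and Retn), against 1.9% of all 13402 genes, and none was at least 2-fold higher, against 2.89%. Together with Adrb3 and Pck1, 7 of the 8 were lower beyond counting error, as were 30.1% of all genes, and none was higher, against 19.6%. Their median difference came to -0.85 in log2(FPKM + 1), a scale which understates low genes, and that of all genes was -0.05. Plin1 was in the set through the vehicle library only, being under 1 FPKM with amiodarone. When genes were instead filtered on their mean in the 4 libraries (1 FPKM or more), an alternative chosen after seeing the data, the count was again 5 of 8, against 1.52% of all 13183 genes. With 1 added to each value before the ratio, 1 gene, Cfd, stayed at least 2-fold lower.

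The combination against dabigatran sets amiodarone against no amiodarone in a second pair, with dabigatran in both libraries. Its reference is the dabigatran library, in which Adipoq and Cfd were higher than with vehicle, at ratios of 1.66 and 1.69. Of 8 genes in the set, 4 were at least 2-fold lower (Adipoq, Cfd, Plin1 and Pck1), against 1.05% of all genes, and 6 were lower beyond counting error, against 23.5%. None was at least 2-fold higher, against 1.94%, or higher beyond counting error, against 19.5%. Plin1 and Pck1 were in the set through the dabigatran library only, being under 1 FPKM with the combination. With the filter on the mean of the 4 libraries the count was again 4 of 8, against 0.743% of all genes. The median was -0.58, and -0.01 over all genes. To compare the pairs, the second ratio was divided by the first for the 8 genes with at least 10 reads in every library. For 7 of them the 95% counting interval of this quotient (Wald, on the log scale) held 1, with Plin1, for instance, at 1.45 (0.753 to 2.78). For Cidec it was 1.64 (1.22 to 2.2), so that its ratio was nearer to 1 in the pair that received dabigatran.

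**Figure D2:**
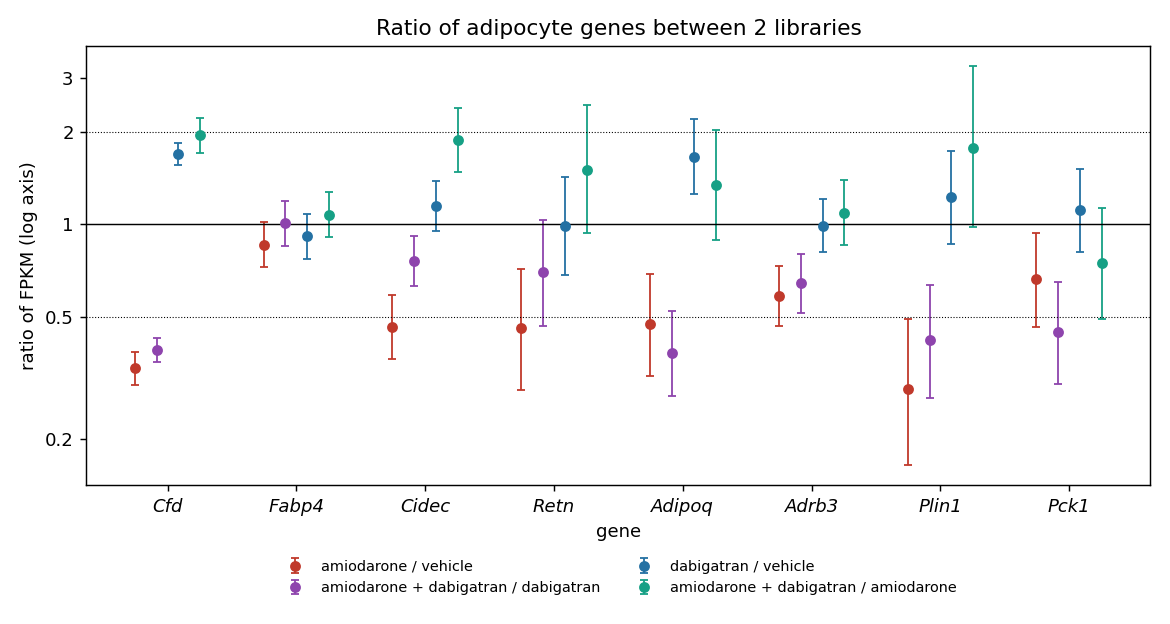
Ratio of FPKM (log axis) for the 8 genes with at least 10 reads in every library, in 4 comparisons of 2 libraries each, with 95% counting intervals; dotted lines mark 2-fold. The points for amiodarone over vehicle (red) and for the combination over dabigatran (purple) of Cfd, Adipoq and Plin1 lie below the lower dotted line, and all 4 points of Fabp4 lie near 1.

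Dabigatran alone gave a different picture. Adipoq was higher than with vehicle, at a ratio of 1.66 (1.26 to 2.2), and so was Cfd, at 1.69 (1.56 to 1.84). These 2 of 8 genes were the ones higher beyond counting error, against 15.2% of all genes, and none was lower, against 13.4%. Both were at least 1.5-fold higher, as were 1.45% of all genes. None reached 2-fold in either direction, as did 0.359% of all genes upward and 0.389% downward. Plin1 was at 1.22 (0.865 to 1.73), Cidec at 1.15 (0.954 to 1.38), Retn at 0.988 (0.686 to 1.42) and Adrb3 at 0.990 (0.812 to 1.21).

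Against amiodarone alone, amiodarone + dabigatran had higher levels of Cfd, with a ratio of 1.95 (1.71 to 2.22), and of Cidec, with 1.88 (1.48 to 2.40). These were the 2 of 7 genes in the set that were higher beyond counting error, against 21.2% of all genes, and none was lower, against 15%. With Retn, 3 were at least 1.5-fold higher, against 2.46%. No gene was 2-fold higher or lower, against 0.656% and 0.664% of all genes. Adipoq was at 1.34 (0.887 to 2.03), Retn at 1.5 (0.934 to 2.44), Adrb3 at 1.09 (0.853 to 1.40) and Pck1 at 0.748 (0.491 to 1.13), all within counting error. Plin1, under 1 FPKM in both libraries and so outside the set, was at 1.77 (0.980 to 3.28), also within counting error. Pck1 was in the set through the amiodarone library only. Compared with vehicle, the combination was lower beyond counting error for 5 of 8 genes (Adipoq, Cfd, Plin1, Adrb3 and Pck1), against 22.6% of all genes. The same 5 were at least 1.5-fold lower, against 4.69%, and of these Pck1 was at least 2-fold lower, against 1.36%. None was at least 2-fold higher, against 2.04%, or higher beyond counting error, against 20%. Plin1 and Pck1 were in this set through the vehicle library only, being under 1 FPKM with the combination. With the filter on the mean of the 4 libraries the count at least 2-fold lower was again 1 of 8, against 1.06% of all genes. Cfd was at 0.661 (0.598 to 0.730) and Cidec at 0.873 (0.718 to 1.06). The comparisons with dabigatran, with vehicle and with amiodarone share the combination library.

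Within a library, the reads of each gene were set against those of Adipoq, which takes the scaling between libraries out. There were 11.2 reads of Cfd per Adipoq read in the vehicle library (8.99 to 14.2), 8.07 after amiodarone (5.87 to 11.4), 11.5 after dabigatran (9.66 to 13.7) and 11.8 after the combination (9.0 to 15.7), which overlap. Plin1, Cidec, Retn and Pck1 also overlapped the vehicle library in the other 3 libraries. Such an overlap does not show that a proportion was unchanged. With dabigatran, Plin1 was at 0.538 reads per Adipoq read, against 0.741 with vehicle, and Cidec at 1.78, against 2.56. Retn was at 0.441, against 0.741, and Pck1 at 0.636, against 0.953. Fabp4 did not overlap the vehicle library in the amiodarone and dabigatran libraries. Its reads per Adipoq read were 3.45 with vehicle (2.70 to 4.44), 6.26 with amiodarone (4.52 to 8.85) and 1.90 with dabigatran (1.55 to 2.35), and 5.03 with the combination (3.79 to 6.79), which overlapped vehicle. Adrb3 was at 2.41 with vehicle (1.86 to 3.14), 3.0 with amiodarone (2.11 to 4.34) and 1.43 with dabigatran (1.15 to 1.79), the last without overlap.

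**Figure D3:**
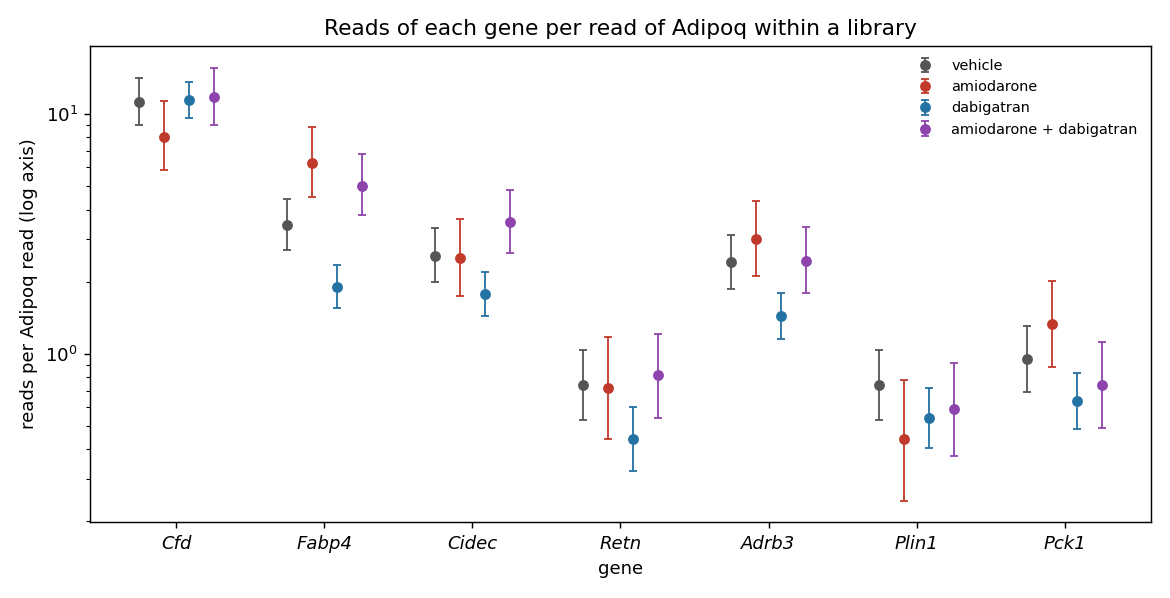
Estimated reads of each gene per read of Adipoq (log axis) in the same library, with exact 95% binomial intervals as bars. Cfd stays between 8.07 and 11.8, whereas Fabp4 runs from 1.90 in the dabigatran library to 6.26 in the amiodarone library.

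Over the 4 libraries, the profile of Adipoq was compared with those of the 15161 other genes that had at least 10 reads in a library, by the Euclidean distance between centred log2(FPKM + 1) profiles. The 8 nearest were 2210418O10Rik, Col3a1, Cyp4a12b, Clec11a, Igfbp2, Reg3g, Tbxa2r and Mrc2, at distances from 0.10 to 0.31. Among them Col3a1, a chain of fibrillar collagen, had 95.6 FPKM in the vehicle library, 47.6 after amiodarone, 121 after dabigatran and 59.9 after the combination. The reads of 2210418O10Rik and Cyp4a12b include fractions, as for genes that share reads with a copy, so their values are uncertain. Igfbp2, which binds insulin-like growth factors, had 255, 125, 312 and 158 FPKM in that order. Plin1 came next, at 0.32, with 8 other genes nearer, while 119 were nearer than Retn, 378 nearer than Cfd and 5984 nearer than Fabp4. This likeness rests on 4 values per gene and is a description, and with a pseudocount of 0.1 in place of 1, only 1 of these 8 genes was again among the 8 nearest.

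Further genes of adipocytes moved less uniformly. Of the 21 such genes that were found, 17 reached 1 FPKM in the vehicle or amiodarone library, of which 5 were at least 2-fold lower with amiodarone, against 1.9% of all genes, and 1 was at least 2-fold higher, against 2.89%. Beyond counting error 12 were lower, against 30.1%, and 2 were higher, against 19.6%. Their median was -0.50. Of the 5 at least 2-fold lower, Mrap and Arxes1 were in the set through the vehicle library only, being under 1 FPKM with amiodarone. Their means over the 4 libraries were also under 1 FPKM, at 0.95 and 0.86. Between the combination and dabigatran, 16 reached 1 FPKM, of which 1 was at least 2-fold lower, against 1.05% of all genes. None was at least 2-fold higher, against 1.94%. In this second pair 7 were lower beyond counting error, against 23.5%, and 4 were higher, against 19.5%, with a median of -0.29. Car3, the carbonic anhydrase abundant in fat and muscle, was at 34.2 FPKM in the vehicle library, 12.2 after amiodarone, 45.1 after dabigatran and 18.6 after the combination, a ratio of 0.357 (0.314 to 0.405) in the first pair and 0.414 (0.373 to 0.459) in the second. Lgals12, a galectin of adipocytes, had ratios of 0.442 (0.317 to 0.610) and 0.561 (0.407 to 0.768). Mrap, the accessory protein of the ACTH receptor, had 19 and 7 reads, a ratio of 0.345 (0.122 to 0.857).
In the first pair the gene at least 2-fold higher was Trarg1, with 4.02, 9.13, 3.99 and 5.90 FPKM. Trarg1 acts in the traffic of the insulin-responsive glucose transporter. The other gene higher beyond counting error in that pair was Lipe, the hormone-sensitive lipase, at a ratio of 1.31, named after its value was seen. The adipocyte transcription factor gene Cebpa, with 65.8 FPKM for vehicle and 60.5 for amiodarone, had a ratio of 0.919 (0.873 to 0.967). G0s2, an inhibitor of lipolysis, had 67.2, 38.5, 72.2 and 39.5 FPKM.

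Enzymes and carriers of lipid synthesis, storage and release, most of which many lung cells express, were more often higher. Of 25 genes 15 were higher beyond counting error with amiodarone, against 19.6% of all genes, and 5 were lower, against 30.1%. At least 2-fold higher were 3, against 2.89%, and none was 2-fold lower, against 1.9%. Scd1, the desaturase that makes oleate, had 314 FPKM in the vehicle library, 880 after amiodarone, 376 after dabigatran and 1075 after the combination. Angptl4, an inhibitor of lipoprotein lipase, had 11.7, 46.2, 9.17 and 33.5 FPKM, and Lpl, the lipase itself, had 63.8, 138, 65.0 and 99.2 FPKM. Cd36, a fatty acid transporter, was at 298 and 306 FPKM, a ratio of 1.03 (1.0 to 1.05).

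Of the brown fat genes beside Ucp1, 15 were in the table and 11 reached 1 FPKM in the first pair, of which none was 2-fold lower or higher, against 1.9% and 2.89% of all genes. Beyond counting error 6 were lower, against 30.1%, and 1 was higher, against 19.6%. The most abundant of them, Fabp3, Cox7a1 and Cox8b, serve fatty acid use in heart muscle as well, and had ratios of 0.562 (0.505 to 0.625), 0.534 (0.424 to 0.670) and 0.604 (0.481 to 0.757). Of 4 white fat genes at 1 FPKM, 1 was at least 2-fold lower, against 1.9% of all genes. None was 2-fold higher, against 2.89%. Lower beyond counting error was 1, against 30.1%, and 1 was higher, against 19.6%. The lower gene was Nnat, which encodes neuronatin. It had 14.3 FPKM in the vehicle library, 6.15 after amiodarone, 12.1 after dabigatran and 8.76 after the combination. Npr3, a clearance receptor for natriuretic peptides, was higher at 1.31 (1.21 to 1.41), and Mest was at 0.859 (0.668 to 1.10).
Receptors for the products of these genes and for catecholamines were not 2-fold different with amiodarone, against 1.9% of all genes lower and 2.89% higher. Adipor1 and Adipor2, the adiponectin receptors, had ratios of amiodarone to vehicle of 1.14 (1.09 to 1.18) and 1.40 (1.33 to 1.47).

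Of 14 relatives of the 10 genes at 1 FPKM, 2 were at least 2-fold higher, against 2.89% of all genes, and 1 at least 2-fold lower, against 1.9%, with amiodarone. Fabp5, the epidermal fatty acid carrier that macrophages express, had 44.5 FPKM in the vehicle library, 92.1 after amiodarone, 48.1 after dabigatran and 115 after the combination, a ratio of amiodarone to vehicle of 2.07 (1.89 to 2.27). Retnlg, the resistin-like gene of neutrophils, had 9.24, 110, 9.22 and 63.5 FPKM, a ratio of amiodarone to vehicle of 11.9 (9.55 to 14.9), while Retn was lower. Retnla, the resistin-like gene of alternatively activated macrophages, was at 204 and 204 FPKM, a ratio of 1.0 (0.943 to 1.07). Ucp2, the widely expressed relative of Ucp1, had 467, 724, 426 and 499 FPKM. Fabp1, the carrier of liver and gut, had 44 reads in the vehicle library, 2 after amiodarone, 42 after dabigatran and 13 after the combination, a ratio of 0.0432 (0.00507 to 0.166). Reads that match more than 1 gene are divided by estimation and give fractions of a read. All 10 adipocyte genes had whole numbers of reads in every library, within 0.005 of a read, as did 82.6% of all genes.

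Marker genes of other tissues were read beside these results. The libraries were lung, with the surfactant gene Sftpc between 19587 and 20385 FPKM. Macrophage markers were higher in the libraries with amiodarone, by a median of 1.02 for amiodarone against vehicle, with 12 of 13 higher beyond counting error, against 19.6% of all genes, and their summed level was 3693 FPKM in the vehicle library, 6123 after amiodarone, 4022 after dabigatran and 6039 after the combination. Endothelial markers had medians of 0.22 in the first pair and -0.24 in the second, and summed levels between 1983 and 2285 FPKM.
Cardiac muscle markers, which mouse lung holds in the walls of its pulmonary veins, were lower in all 3 treated libraries than with vehicle, with sums of 1986, 1051, 1355 and 947 FPKM in the order vehicle, amiodarone, dabigatran, combination. Between amiodarone and vehicle all 11 at 1 FPKM were lower beyond counting error, against 30.1% of all genes, and between dabigatran and vehicle 9 of 11 were, against 13.4%, where Adipoq and Cfd were higher. The ventricular gene Myl2 had at most 1 read.
Mesothelial markers, which cover the surface of the lung, were lower beyond counting error in all 5 cases with amiodarone, against 30.1% of all genes, with sums of 123 FPKM for vehicle and 66.4 for amiodarone, but were at 123 and 135 FPKM with dabigatran and the combination. Skeletal muscle markers were lower beyond counting error in 3 of 5 cases between amiodarone and vehicle, against 30.1% of all genes, and their median was -0.75. In the pair with dabigatran they were lower in 5 of 6 cases, against 23.5%, with a median of -1.30. Of these 5, Acta1 was in the set through the dabigatran library only, at 2.45 FPKM against 0.15 with the combination. Between dabigatran and vehicle the median of the skeletal muscle markers was 0.10, again with Acta1 in the set through the dabigatran library only. The more abundant Ckm, Myl1 and Atp2a1 had ratios of 0.923, 1.01 and 1.11. In the dabigatran library, where Adipoq and Cfd were highest, Acta1 and Myh4 of this list, named after their values were seen, had 62 and 39 reads, against 3 to 4 and 0 reads in the other 3 libraries. Thymus markers stayed under 1 FPKM in every library. Markers of lipofibroblasts, the lipid-storing fibroblasts of the lung, had a median of -0.16 in the first pair and -0.25 in the second. Lung epithelial markers had medians of 0.09 and 0.08. In the first pair 5 of the 8 epithelial markers were higher beyond counting error, against 19.6% of all genes. Lower were 2, against 30.1%. The most abundant, Scgb1a1, was among the lower, at 124168 FPKM with vehicle and 73994 with amiodarone. The part of these tissues in the levels of the adipocyte genes was not tested.

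**Figure D4:**
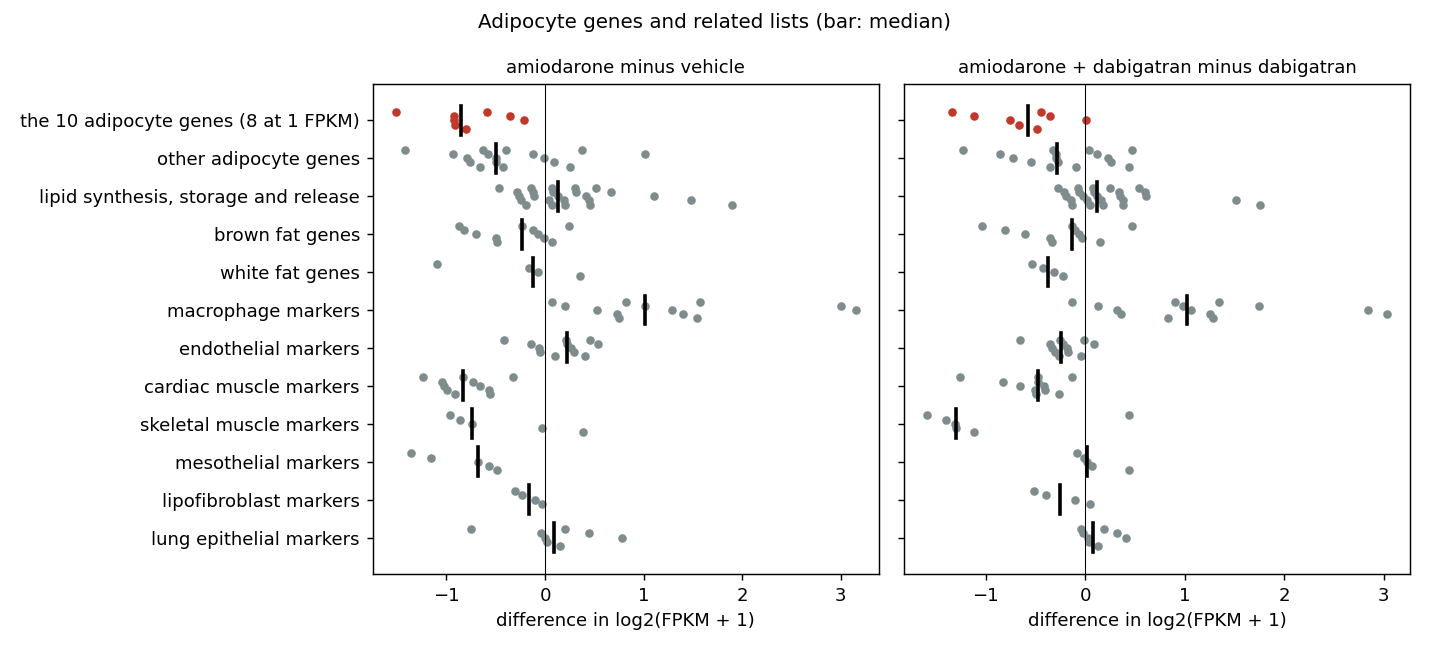
Difference in log2(FPKM + 1) of each gene with at least 1 FPKM in either library, for amiodarone minus vehicle and for amiodarone + dabigatran minus dabigatran; each point is a gene and each bar the median of its list. The bar of the adipocyte genes lies at -0.85 and -0.58 in the left and right panels, that of macrophage markers at 1.02 and 1.03, and that of cardiac muscle markers at -0.83 and -0.47.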

How the data were processed

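Poly(A)+ RNA was sequenced by DNBseq, and the authors mapped the reads to GRCm38.p6 with HISAT and to reference genes with Bowtie2 and estimated expression with RSEM. The authors deposited, for each of 4 libraries, an expected count of reads and a normalized value per gene. The deposited normalized value is read as FPKM, because reads per unit of value differed between amiodarone and vehicle by a factor of 1.07, equal to that of total reads (also 1.07), and because totals differed between libraries. Another 8 columns of means were not used. Total reads ranged from 17498486 to 18903401, and 17669 gene identifiers (99.4%) were found in RefSeq, which gave coordinates.

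Ratios of FPKM with exact Clopper-Pearson intervals, Poisson intervals and medians of log2(FPKM + 1) were computed in Python 3.11.15 with NumPy 2.4.6, pandas 2.3.3 and SciPy 1.17.1. Expected counts were rounded for intervals, and a count of 0 was set to 3 reads. Intervals and floors cover counting error only, since reads are not independent molecules. The procedure was tested on simulated data. The 10 genes, the 14 lists around them and the motifs were chosen with earlier results of these data known. Genes named from a list were its 3 most abundant and up to 3 of the largest ratios in each direction beyond 2-fold and counting error. One gene that this rule names is not reported here. Acta1, Arxes1, Lipe, Myh4 and Myl2 were named after their values were seen. Of 172 listed genes 164 were in the table. For Plin2, listed under more than 1 identifier, the RefSeq gene was used.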

Additional observations from a re-analysis of the deposited data

How the results depend on the processing

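With 1 library per group no replicate could be left out. No paired analysis was possible because each group has 1 library. Single ratios of 9 genes, without Ucp1, for which none was computed, stayed inside their counting intervals in all 90 alternatives by total reads or by median ratio, and the medians over the genes stayed inside the range that their counting intervals gave. FPKM is already scaled to depth and the median ratio factors ran only from 0.976 to 1.01, so the 90 alternatives were a weak check. Counts of genes at least 2-fold different depended on the threshold. For amiodarone against vehicle the 5 genes became 3 with a filter of 5 FPKM and 1 with a pseudocount of 1, while over all genes 387 higher and 255 lower became 250 and 73 with that pseudocount, and 747 and 906 without a filter. For the combination against dabigatran the 4 genes became 2 with a filter of 5 FPKM and 2 with a pseudocount of 1. For the combination against vehicle the 1 gene became 5 at 1.5-fold, 2 by total reads, 2 without a filter, and 0 with a filter of 5 FPKM, a pseudocount of 1 or a pseudocount of 0.1. At 1.5-fold the 0 genes became 2 for dabigatran against vehicle and 3 for the combination against amiodarone, and in the latter 1 without a filter. A filter on the mean of the 4 libraries, chosen after seeing the data, gave the main count in each of the 5 comparisons. A filter of 5 FPKM leaves fewer genes to count, and a pseudocount shrinks ratios of low genes. Without a filter the added gene was Lep. By total reads the added gene was Plin1, whose ratio of the combination to vehicle went from 0.513 to 0.4996. Of the 8 genes nearest to Adipoq 1 remained with a pseudocount of 0.1. Depth limited Lep and Ucp1, with at most 9 and 1 reads.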
